A study of Homo sapiens with 6 samples.

Results

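The genes described here are 9 targets of the transcription factor p53 with roles in stress responses and cell death: GDF15, TP53INP1, PMAIP1, SESN2, AEN, APAF1, FBXO22, SPATA18 and PLK2. They were found by their symbols in the platform annotation, all 9 were measured, and they are 9 of the 14884 genes tested, read by 10 of 53617 probe sets (the probe groups that the array reports as 1 value). Where a gene had several probe sets, the brightest by its mean over the arrays was used. The study profiled U-2 OS, a cell line from a human osteosarcoma, on 6 Affymetrix whole-transcript arrays. On 3 arrays the cells expressed S22A-progerin from a retroviral vector, and on the other 3 they expressed wt-progerin from the same kind of vector. Progerin is the truncated lamin A of Hutchinson-Gilford progeria, and in S22A-progerin the serine at residue 22 is replaced by alanine. All cells were selected in puromycin at 5 µg/ml for 3 days, and RNA was taken 4 days after infection. Both groups therefore carry progerin, the vector and the selection, and cells without progerin were not analysed here. The labels call the replicates independent, with no further detail, so p-values reflect only how far these arrays vary.

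p53 is a transcription factor that accumulates after DNA damage and other stresses and binds paired decamer motifs near its target genes. Its targets stop the cell cycle, hold back growth signalling, repair damage or trigger death through the mitochondria, and some act back on p53 itself. U-2 OS cells keep a functional p53 gene and are widely used to study its targets. Several of these targets, among them GDF15, SESN2 and PMAIP1, are also known to respond to ATF4, the transcription factor of the integrated stress response, in cells without active p53.

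Of the 9 genes, 7 were higher in S22A-progerin than in wt-progerin cells, none was lower, and SPATA18 and PLK2 did not pass the test. A gene was called at a limma adjusted p under 0.05, and over all genes tested 10.8% were called higher and 14.6% lower. The 9 genes were chosen with earlier results of these data known, so this contrast is a description. All differences are in log2 units, S22A-progerin minus wt-progerin. Their median was 0.28 over the 9 genes and -0.0037 over all genes. In 8 of the 9 the S22A-progerin values lay wholly above the wt-progerin values, as they did in 18.5% of all genes, and in none wholly below, as in 23.6% of all genes. The sizes were unequal: GDF15 rose 11.8-fold, TP53INP1, PMAIP1 and SESN2 rose 1.73-fold to 1.99-fold, and AEN, FBXO22 and APAF1 rose 1.17-fold to 1.21-fold. The first 4 genes kept their call in each of 17 other ways of processing or testing the data. AEN lost it in 7 of these, and APAF1 and FBXO22 in 6 each, among them the fit over every probe set (adjusted p = 0.0705, 0.0804 and 0.0628). In bulk RNA, a change in a share of the cells and a change in every cell cannot be told apart.

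**Figure D1:**
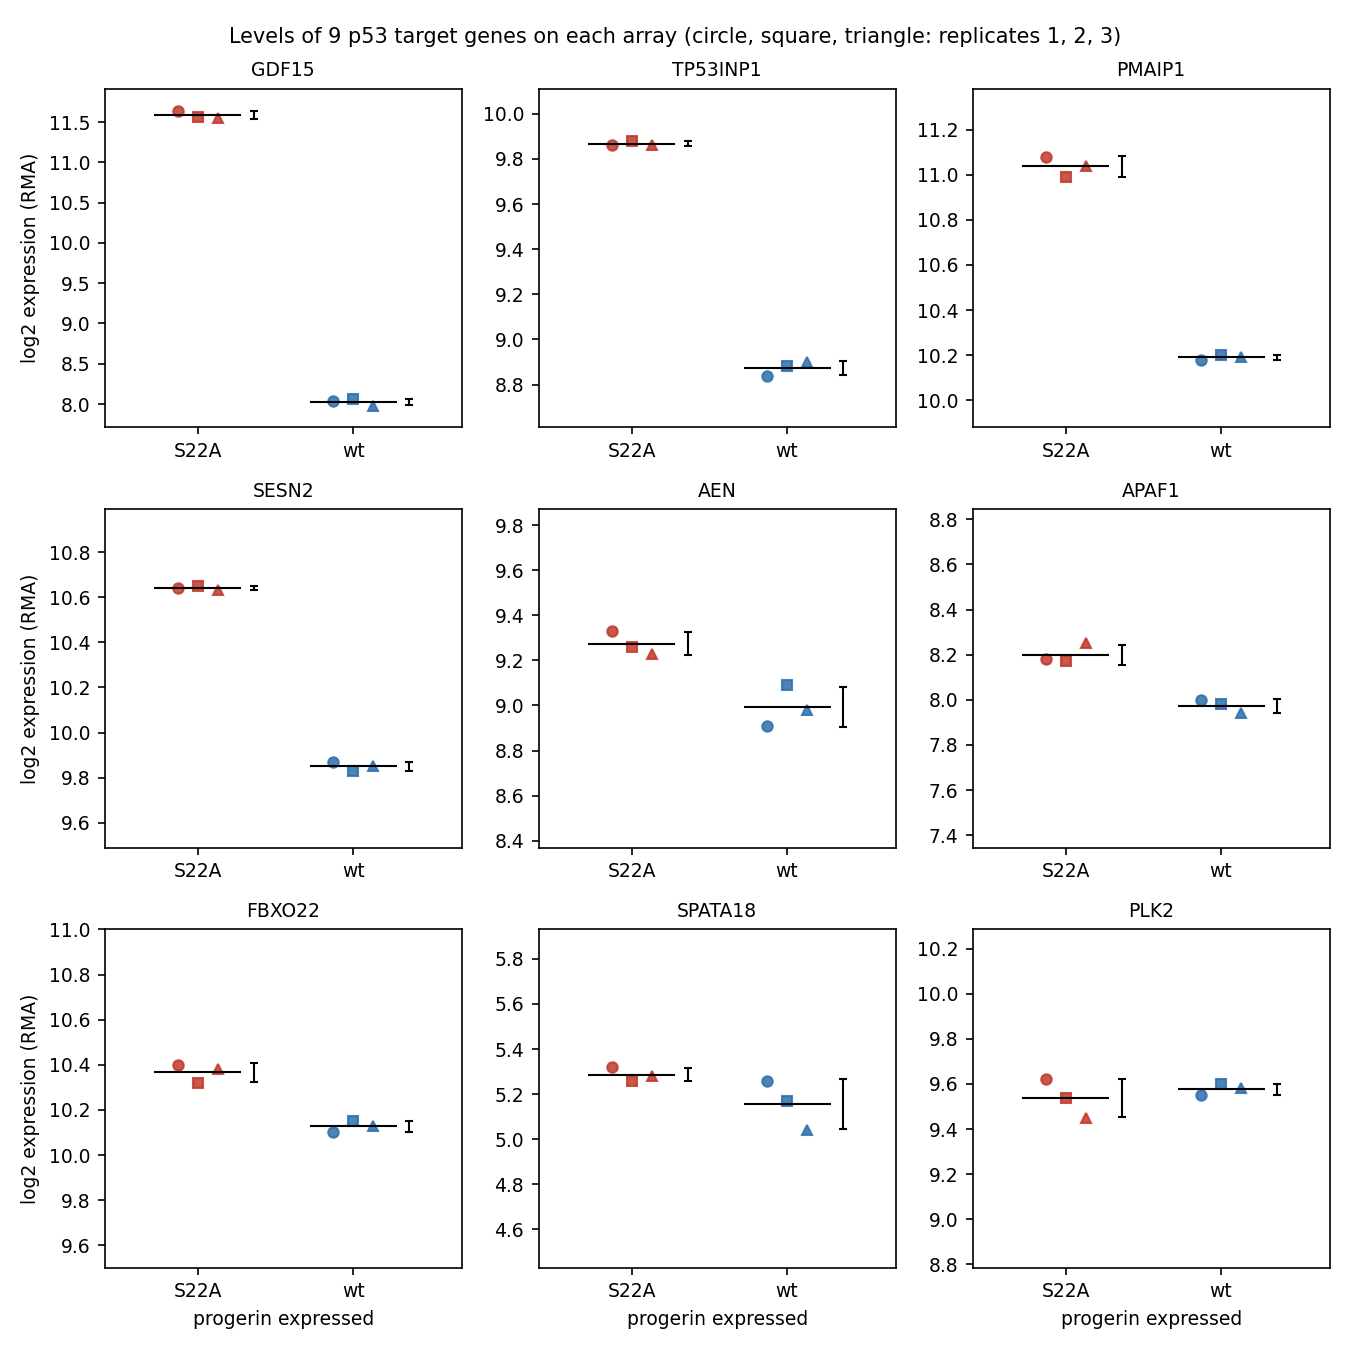
Log2 expression (vertical axis) of each of the 9 genes on the 3 S22A-progerin arrays (red) and the 3 wt-progerin arrays (blue); horizontal lines are group means and bars the SD, and the axis of GDF15 spans a wider range than the others. GDF15, TP53INP1, PMAIP1 and SESN2 sit far above wt-progerin in all 3 S22A-progerin arrays, and PLK2 overlaps.

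The arrays were alike in scale, with medians over all probe sets of 6.05 to 6.09 in S22A-progerin and 6.04 in each wt-progerin array. S22A-progerin replicate 3 stood apart on the second principal component, which held 11.1% of the variance, with a score of -15.5 against 6.51 and 9.29 for the other arrays of its group. Without that array 7 of the 9 genes still passed. Averaged over the 9 genes, the deviation of an array from its group mean lay between -0.02 and 0.03. LMNA, the gene of lamin A and progerin, had a difference of 0.15 and did not pass (adjusted p = 0.0796); what share of that signal comes from the vector was not tested.

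GDF15 encodes a secreted cytokine of the TGF-beta superfamily that is released by stressed cells and acts on appetite through the receptor GFRAL in the brainstem. Its log2 level was 11.64, 11.56 and 11.55 on the S22A-progerin arrays, against 8.04, 8.06 and 7.98 on the wt-progerin arrays. The groups were 3.48 apart at their closest, while each spanned 0.09. The difference was 3.55 (SE 0.056, 95% interval 3.42 to 3.69, adjusted p = 6.82e-07). It was rank 6 from the top among the differences of all 14884 genes. Over the alternatives the difference stayed between 3.52 and 3.58.

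Neither receptor gene of GDF15 was called higher. GFRAL was read at 4.12, 4.11 and 4.12 in S22A-progerin cells and at 4.17, 4.03 and 4.28 in wt-progerin cells, values below the array medians, and did not pass (-0.05, adjusted p = 0.688). RET, the signalling partner of GFRAL, averaged 5.84 in S22A-progerin cells and 6.09 in wt-progerin cells, and fell by 0.25 on the log2 scale (adjusted p = 0.0344). Leaving out S22A-progerin replicate 2 or 3 or any wt-progerin array ended the call of RET (adjusted p = 0.07 to 0.117). Of the other GDF genes measured, GDF11, a factor of axial patterning, fell by 0.19 (adjusted p = 0.0278), a call that ended without any one of the 6 arrays (adjusted p = 0.0533 to 0.102). GDF5 (-0.14) and GDF6 (0.29), both of joint and skeletal development, did not pass. Over all families of the 9 genes, described here and further on, 3 of 13 measured relatives and receptors rose and 5 fell. These are 23.1% and 38.5%, against 10.8% and 14.6% of all genes, and the median was -0.12. The falls were 3 without S22A-progerin replicate 2 or 3 or any wt-progerin array. They were also 3 with every probe set tested, with a fixed replicate block or at adjusted p under 0.01.

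The promoter of GDF15 is shown because the gene led the set, and those of AEN and PLK2 because they alone, of the 7 promoters found for the 9 genes, hold the p53 decamer consensus. FBXO22 and TP53INP1 were not among those 7. The sequences are RefSeq's for GRCh38.p14 and give the 250 bases before the annotated start, 5′ to 3′ on the strand of the gene. Capitals mark TATAAA in GDF15 and the p53 decamer in AEN and PLK2.
GDF15, chr19:18385908-18386157, plus strand: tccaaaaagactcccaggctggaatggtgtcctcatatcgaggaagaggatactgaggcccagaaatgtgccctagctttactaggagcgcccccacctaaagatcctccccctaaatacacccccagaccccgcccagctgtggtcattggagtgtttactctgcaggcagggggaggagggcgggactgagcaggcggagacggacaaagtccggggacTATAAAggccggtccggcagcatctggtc
AEN, chr15:88621090-88621339, plus strand: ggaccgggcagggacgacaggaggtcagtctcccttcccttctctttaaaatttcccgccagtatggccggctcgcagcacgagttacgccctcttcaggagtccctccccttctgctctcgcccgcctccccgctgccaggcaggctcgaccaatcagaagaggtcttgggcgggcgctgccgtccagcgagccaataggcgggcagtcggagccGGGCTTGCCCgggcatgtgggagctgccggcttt
PLK2, chr5:58460087-58460336, minus strand: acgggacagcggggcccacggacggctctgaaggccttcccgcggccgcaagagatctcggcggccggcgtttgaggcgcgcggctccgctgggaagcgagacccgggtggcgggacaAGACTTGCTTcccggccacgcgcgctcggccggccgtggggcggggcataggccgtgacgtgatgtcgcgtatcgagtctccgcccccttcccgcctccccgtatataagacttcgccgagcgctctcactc

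Both strands were searched for the p53 decamer consensus, with no mismatch allowed, and for 4 others: TGATGNAAN, bound by ATF4 with C/EBP, TGANTCA, bound by AP-1, TGACGTCA, bound by CREB and ATF factors, and TATAAA, bound by the TATA-binding protein. None of these motifs overlapped another in the 7 windows. The window searched ran from 250 bases before the start to 50 after it. The decamer was found in 2 of the 7 windows, as GGGCTTGCCC beginning at base -34 of AEN and as AGACTTGCTT beginning at base -132 of PLK2. It was present in 6.63% of 35116 RefSeq promoters of the same length. TATAAA was found at base -29 of GDF15 and in 11.5% of all promoters. The other 3 motifs were found in none of the 7, against 3.61% for TGATGNAAN, 7.71% for TGANTCA and 1.85% for TGACGTCA. The genes with a decamer in this window were thus 1 with a small rise and 1 with no call. GDF15, PMAIP1 and SESN2 had none, nor had APAF1, with a small rise, or SPATA18, with no call. The search was for single decamers, and sites with a mismatch or outside the window were not searched. GC content of the 7 windows ran from 55.7% in SPATA18 to 71.3% in PMAIP1 and APAF1, and the median over all promoters was 58.7%.

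Among the stress sensors, SESN2 encodes sestrin 2, which binds leucine and restrains the growth kinase complex mTORC1 through the GATOR complexes. It was read at 10.64, 10.65 and 10.63 in S22A-progerin cells and at 9.87, 9.83 and 9.85 in wt-progerin cells. Its replicates spanned 0.02 and 0.05, and the groups were 0.76 apart at their closest. SESN2 rose by 0.79 (SE 0.049, 95% interval 0.68 to 0.91, adjusted p = 8.03e-05), 1.73-fold.

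The 3 sestrin genes did not move together. SESN1, the sestrin first found as a p53 target, was at 8.32, 8.26 and 8.25 in S22A-progerin cells and at 7.36, 7.49 and 7.46 in wt-progerin cells, a rise of 0.84 (adjusted p = 0.000121). SESN3, which is known as a target of FOXO factors, was at 7.08, 7.02 and 7.02 in S22A-progerin cells and at 7.71, 7.77 and 7.67 in wt-progerin cells. SESN3 fell by 0.68 (adjusted p = 0.000232). The groups did not overlap in any of the 3 genes, with SESN1 and SESN2 higher and SESN3 lower.

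Of the GATOR, Rag and mTORC1 machinery on which sestrins act, 18 genes were measured, with SESN1 and SESN3 among them. Of these, 5 rose (27.8%, against 10.8% of all genes), 2 fell (11.1%, against 14.6%) and 11 did not pass. The median difference was 0.01. The Rag GTPase genes RRAGC (0.70, 1.62-fold) and RRAGD (0.59, 1.5-fold) rose; their products recruit mTORC1 to the lysosome. KICS2, a subunit of the KICSTOR scaffold that holds GATOR1 at the lysosome, rose by 0.38. SEH1L, a protein of GATOR2 and of the nuclear pore, fell by 0.29. MTOR itself (-0.09) and the GATOR1 genes DEPDC5 (0.00), NPRL2 (0.02) and NPRL3 (-0.05) did not pass; these 4 are given as the best known members and were chosen after their values were seen.

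TP53INP1 encodes a nuclear protein that promotes p53 phosphorylation and, in the cytoplasm, binds LC3-family proteins in autophagy. Its level was 9.86, 9.88 and 9.86 in S22A-progerin cells, against 8.84, 8.88 and 8.90 in wt-progerin cells. The groups were 0.96 apart at their closest, and neither spanned more than 0.06. TP53INP1 rose by 0.99 (SE 0.049, 95% interval 0.88 to 1.11, adjusted p = 3.51e-05), 1.99-fold, second to GDF15 among the 9. Its paralog TP53INP2, which also works in autophagy, was at 8.47, 8.38 and 8.45 in S22A-progerin cells and at 8.49, 8.52 and 8.65 in wt-progerin cells, and did not pass (-0.12, adjusted p = 0.23).

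SPATA18 encodes Mieap, a p53-induced protein of mitochondrial quality control. It was dim, at 5.32, 5.26 and 5.28 in S22A-progerin cells and 5.26, 5.17 and 5.04 in wt-progerin cells. The lowest S22A-progerin value lay 0.01 above the highest wt-progerin value, and the wt-progerin arrays spanned 0.21. The difference of 0.14 (SE 0.068, 95% interval -0.02 to 0.29) did not pass (adjusted p = 0.2), and it did not pass in any of the 16 alternatives that tested it. No detection call was used here, and differences are compressed at low signal. A rise of up to 0.29 lies within the interval.

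Of 19 measured genes of autophagy and mitophagy, 7 rose (36.8%, against 10.8% of all genes), 1 fell (5.26%, against 14.6%) and 11 did not pass. Their median was 0.03. DRAM1, a lysosomal membrane protein that is itself a p53 target, rose most, by 1.14, 2.21-fold. GABARAPL1, an LC3-family protein, rose by 0.68, SQSTM1, the cargo receptor p62, by 0.61 and PINK1, the kinase that marks damaged mitochondria, by 0.37. ATG5, which takes part in coupling LC3 to lipid, fell by 0.26; without S22A-progerin replicate 1 or wt-progerin replicate 1 or 3 it was not called (adjusted p = 0.0514 to 0.0638), nor with every probe set tested (adjusted p = 0.0639). With a variance prior that follows signal or the dimmer genes left out, 2 genes of this list fell.

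Among the genes of cell death, PMAIP1 encodes NOXA, a BH3-only protein that neutralises the survival protein MCL1. Its level was 11.08, 10.99 and 11.04 in S22A-progerin cells and 10.18, 10.20 and 10.19 in wt-progerin cells. The wt-progerin arrays spanned 0.02, the S22A-progerin arrays 0.09, and the groups were 0.79 apart. PMAIP1 rose by 0.85 (SE 0.051, 95% interval 0.73 to 0.97, adjusted p = 7.72e-05), 1.80-fold.

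Of 15 other measured genes of the BCL2 family, 6 rose (40%, against 10.8% of all genes), 1 fell (6.67%, against 14.6%) and 8 did not pass. Their median difference was 0.07. Rises occurred on both sides of the family. On the side that promotes death, BBC3, which encodes PUMA and is a p53 target, was at 8.06, 8.0 and 7.90 in S22A-progerin cells and at 7.45, 7.35 and 7.36 in wt-progerin cells, a rise of 0.60 (adjusted p = 0.000683). BAK1, a pore-forming effector at the mitochondrial membrane, rose by 0.52. On the side that protects, BCL2A1, an NF-kB-induced inhibitor, was at 7.43, 7.30 and 7.30 in S22A-progerin cells and 6.02, 5.60 and 5.67 in wt-progerin cells, 2.99-fold higher. BCL2L1, which encodes BCL-XL and a shorter pro-apoptotic form that the probe set was not shown to separate, rose by 0.84, 1.79-fold. BOK, a BAX-like effector, fell by 0.68. The list had 3 falls with a variance prior that follows signal and 3 with the dimmer genes left out. It had 2 with each array centred on its median, with array weights, or without S22A-progerin replicate 1 or 3. Its rises were 5 with repeated quantile normalization, with each array centred on its median or with every probe set tested. They were also 5 with the dimmer genes left out, where BCL2A1 (wt-progerin mean 5.76) was not tested. MCL1, the partner of NOXA, did not pass (0.07, 95% interval -0.05 to 0.19); it was singled out after its value was seen.

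APAF1 is the scaffold of the apoptosome, which assembles on cytochrome c and activates caspase 9. It was read at 8.18, 8.17 and 8.25 in S22A-progerin cells and at 8.0, 7.98 and 7.94 in wt-progerin cells. The groups did not overlap and were 0.16 apart at their closest. APAF1 rose by 0.22 (SE 0.053, 95% interval 0.10 to 0.35, adjusted p = 0.0206), 1.17-fold. Leaving out wt-progerin replicate 1, 2 or 3 ended the call, at adjusted p = 0.0541, 0.0645 and 0.0832. Of the 18 other genes listed for the apoptosome and the caspases 5 were measured, and neither cytochrome c nor a caspase was among them. BIRC2, which encodes the inhibitor cIAP1, rose by 0.52, CFLAR, an inhibitor of caspase 8, by 0.30, and HTRA2, a mitochondrial protease, by 0.22. HTRA2 lost its call without S22A-progerin replicate 1 or any wt-progerin array (adjusted p = 0.0533 to 0.0798). BIRC5, survivin, which also works at mitosis, fell by 0.47, and XIAP (-0.12) did not pass.

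AEN encodes an exonuclease that digests DNA in apoptotic cells. Its level was 9.33, 9.26 and 9.23 in S22A-progerin cells, against 8.91, 9.09 and 8.98 in wt-progerin cells. The spread was wide for this set, with 0.19 across the wt-progerin arrays and a gap of 0.14 between the groups. AEN rose by 0.28 (SE 0.066, 95% interval 0.12 to 0.43, adjusted p = 0.0199), 1.21-fold. The call ended without S22A-progerin replicate 1 or 2 (adjusted p = 0.0617 and 0.0507) and without wt-progerin replicate 1 or 3 (adjusted p = 0.0705 and 0.0689). ISG20, a related exonuclease gene induced by interferon, rose by 0.27 (adjusted p = 0.016), and it too lost its call without wt-progerin replicate 2 or 3 (adjusted p = 0.062 and 0.0513).

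**Figure D2:**
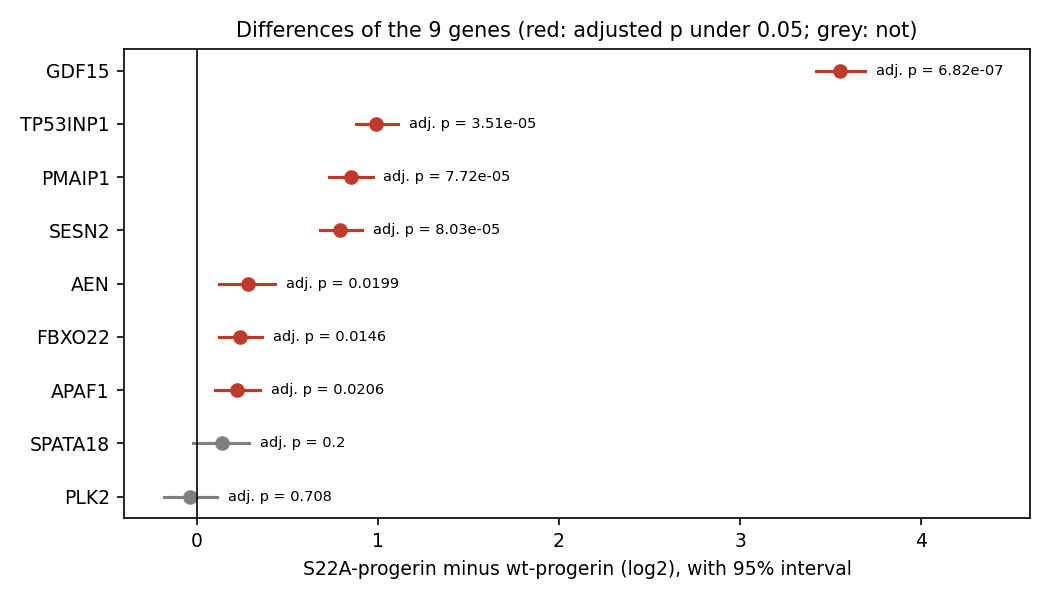
Difference between S22A-progerin and wt-progerin (horizontal axis, log2) with its 95% interval for each of the 9 genes, n = 3 arrays per group. The intervals of AEN, FBXO22 and APAF1 lie between 0.10 and 0.43, those of TP53INP1, PMAIP1 and SESN2 between 0.68 and 1.11, and those of SPATA18 and PLK2 span 0.

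Among the genes of feedback and turnover, FBXO22 encodes an F-box protein of SCF ubiquitin ligases that targets the histone demethylase KDM4A and, in a complex with it, methylated p53. It was the only member with 2 probe sets, and their differences had opposite signs, though that of the dimmer did not pass. The brighter, annotated to a coding transcript, was at 10.40, 10.32 and 10.38 in S22A-progerin cells and at 10.10, 10.15 and 10.13 in wt-progerin cells. Its groups were 0.17 apart, and FBXO22 rose by 0.24 (SE 0.052, adjusted p = 0.0146), 1.18-fold. The dimmer, annotated to a non-coding transcript of the same gene, was at 6.14, 6.29 and 6.17 in S22A-progerin cells and at 6.14, 6.27 and 6.43 in wt-progerin cells, and the groups overlapped. Its difference was -0.08 (95% interval -0.30 to 0.15, adjusted p = 0.691 over all probe sets). Which strand and region this dimmer probe set reads was not checked. Tested over all probe sets, of which 10% were called, the brighter one did not pass either (adjusted p = 0.0628), and with both probe sets averaged the gene had a difference of 0.08 (adjusted p = 0.38). Without wt-progerin replicate 1 or 3 the call of FBXO22 also ended (adjusted p = 0.0599 and 0.0554).

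**Figure D3:**
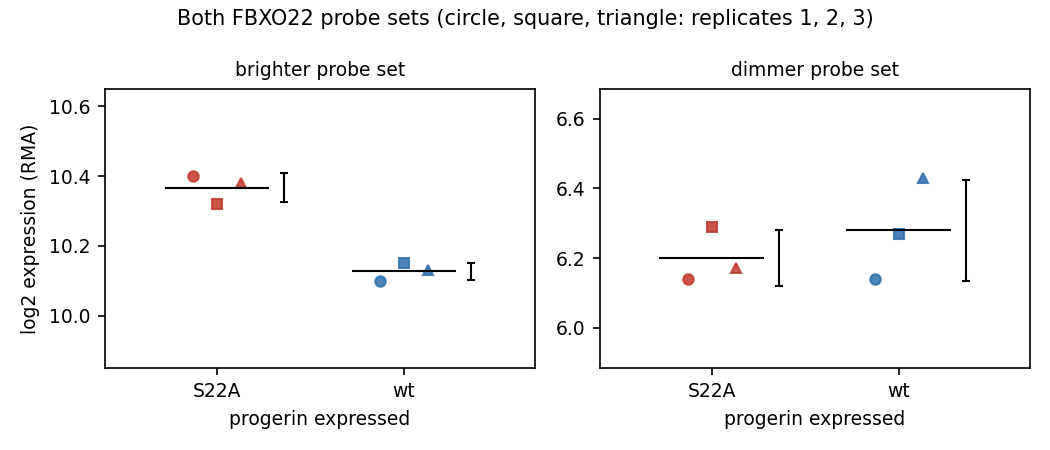
Log2 expression (vertical axis) of the brighter and the dimmer FBXO22 probe set on the 3 S22A-progerin arrays (red) and 3 wt-progerin arrays (blue), with group means as lines and SD as bars. The brighter set lies at 10.32 to 10.40 in S22A-progerin and at 10.10 to 10.15 in wt-progerin, and the dimmer set overlaps.

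Of 13 measured genes of SCF ligases and FBXO22 substrates, 2 rose (15.4%, against 10.8% of all genes) and 3 fell (23.1%, against 14.6%). Their median was -0.03, and RBX1, BACH1, SKP2 and FBXW7 were listed but not analysed here. FBXO32, atrogin-1 of muscle wasting and a FOXO target, rose 2.32-fold, and FBXO38 rose by 0.43. FBXO21 (-0.41), FBXO11 (-0.30) and CAND1 (-0.33), the exchange factor of cullin ligases, fell. KDM4A, the FBXO22 substrate, did not pass (-0.09).

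PLK2, a polo-like kinase of centriole duplication and stress signalling that p53 induces, did not pass the test. Its level was 9.62, 9.54 and 9.45 in S22A-progerin cells and 9.55, 9.60 and 9.58 in wt-progerin cells. The values overlapped, and the S22A-progerin arrays, which spanned 0.17, lay on both sides of the wt-progerin arrays. The difference was -0.04 (SE 0.061, 95% interval -0.18 to 0.11, adjusted p = 0.708), so a rise of more than 0.11 lies outside the interval. Its direction was not settled, with values from -0.08 to 0.01 over the alternatives.

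PLK3, a related stress kinase and also a p53 target, was at 9.56, 9.40 and 9.68 in S22A-progerin cells and at 8.06, 8.06 and 8.23 in wt-progerin cells, a rise of 1.42 (SE 0.088, adjusted p = 8.06e-05), 2.68-fold. PLK1, the kinase of mitotic entry, was at 11.61, 11.56 and 11.63 in S22A-progerin cells and 12.05, 12.09 and 12.09 in wt-progerin cells, and fell by 0.48 (adjusted p = 0.000718). PLK4, which starts centriole duplication, fell by 0.89 (adjusted p = 0.000644), and PLK5, which lacks kinase activity in humans, did not pass (0.11). Differences between the kinase genes themselves were not tested.

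**Figure D4:**
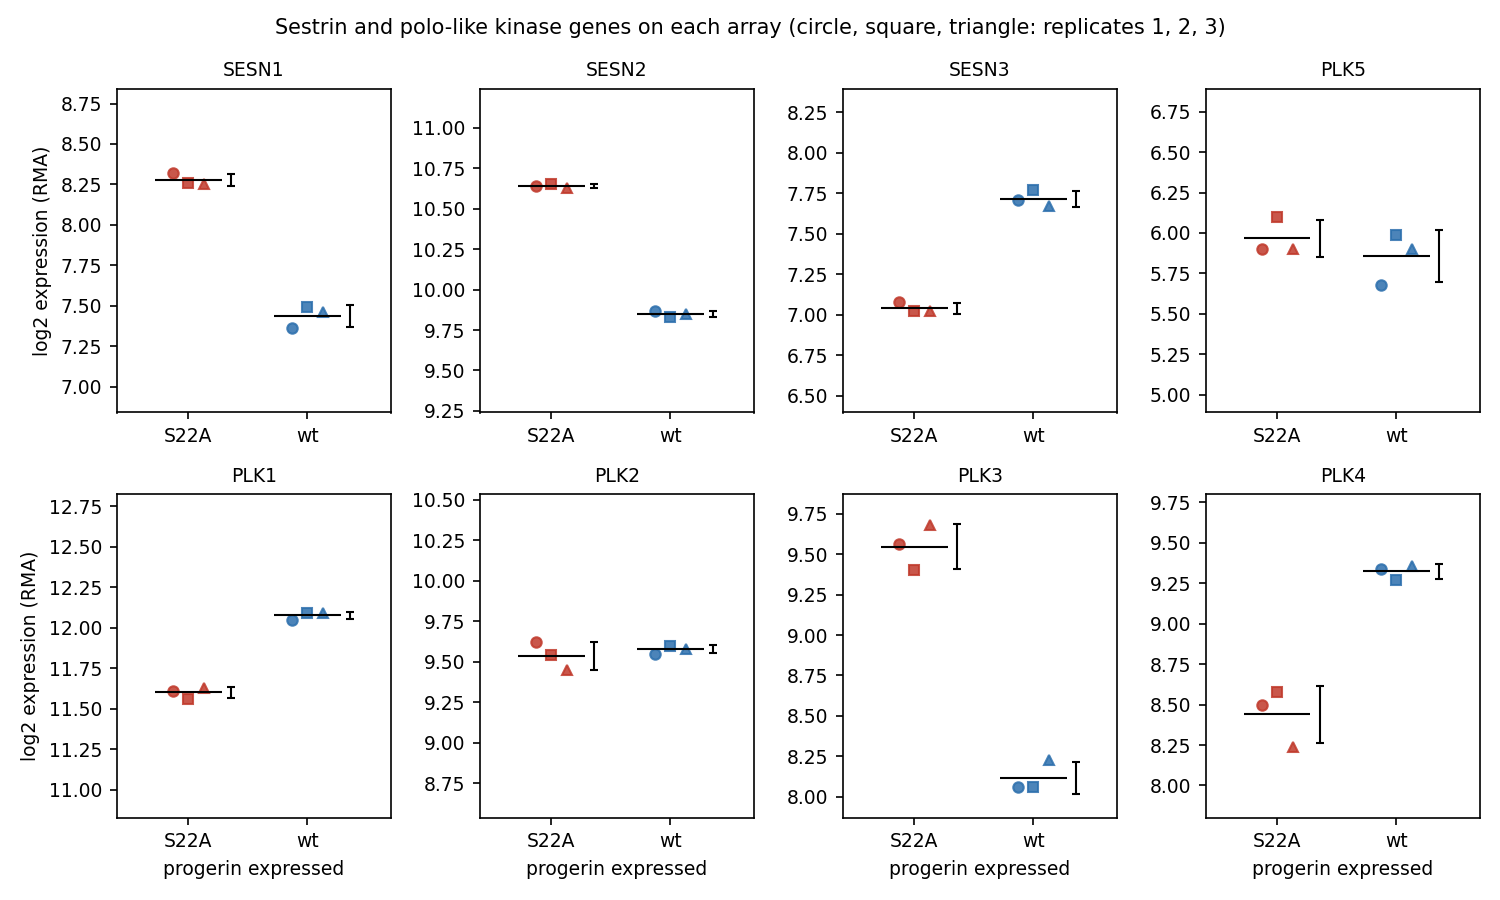
Log2 expression (vertical axis) of the sestrin genes SESN1, SESN2 and SESN3 and the polo-like kinase genes PLK1 to PLK5 on the 3 S22A-progerin arrays (red) and 3 wt-progerin arrays (blue); lines are means, bars the SD, and all panels span the same range. SESN1, SESN2 and PLK3 are higher, SESN3, PLK1 and PLK4 lower, and PLK2 and PLK5 overlap.

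The 9 genes were set beside 64 other p53 targets, of which 35 were measured. Of these, 25 rose, 2 fell and 8 did not pass, with a median difference of 0.40, so 71.4% were called higher against 10.8% of all genes. The list was chosen with earlier results of these data known, so this contrast is a description. DRAM1, PLK3, SESN1 and SUSD6 had the smallest p. SUSD6, a transmembrane protein induced after DNA damage, was at 9.54, 9.34 and 9.51 in S22A-progerin cells and 8.46, 8.51 and 8.50 in wt-progerin cells, a rise of 0.97. The falls were TP53I11 (-0.45), a p53-induced protein, and LIF (-0.33), the leukemia inhibitory factor, which lost its call without wt-progerin replicate 1 or 2 (adjusted p = 0.0586 and 0.0664). CDKN1A, MDM2, FAS and GADD45A were on the list and were not analysed here.

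Genes that act on p53 were also listed. Of 19 measured regulators and cofactors none rose (against 10.8% of all genes), 7 fell (36.8%, against 14.6%) and 12 did not pass. Their median was -0.16. TP53INP1 and FBXO22, described above as acting on p53, were not on this list and rose (0.99 and 0.24). FBXO22 lost its call in 6 of 17 alternatives. TP73, a p53 relative, fell by 0.79, and CHEK2 and CHEK1, kinases of the DNA damage checkpoint, by 0.60 and 0.27. CREBBP, an acetyltransferase that works with p53, fell by 0.29. The count of falls was 3 with every probe set tested, 3 at adjusted p under 0.01 and 4 without wt-progerin replicate 3. CHEK1 was not called with every probe set tested or without wt-progerin replicate 3 (adjusted p = 0.0512 and 0.0524). MDM4, an inhibitor of p53, did not pass (0.00, 95% interval -0.16 to 0.17) and was singled out after its value was seen. The transcript of p53 itself was not analysed here.

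ATF4 is another known inducer of GDF15, SESN2 and PMAIP1, and a list of ATF4 and CHOP stress genes was mixed. Not all of its genes are targets: it holds ATF4 itself and the upstream kinases EIF2AK3 (-0.18) and EIF2AK4 (0.10), which did not pass. Whether the targets alone moved together was not tested. Of the 25 genes listed 17 were measured, and CHAC1, PPP1R15A, SLC7A11 and CEBPB were among those not analysed here. Among the 17, 4 rose (23.5%, against 10.8% of all genes) and 3 fell (17.6%, against 14.6%). The median was -0.13. DDIT3, which encodes CHOP, was at 8.55, 8.34 and 8.17 in S22A-progerin cells and at 6.85, 7.06 and 6.84 in wt-progerin cells, a rise of 1.44 (adjusted p = 0.000164). ATF3, a stress-induced repressor, rose by 0.70 and TRIB3, an inhibitor of AKT, by 0.57. WARS1, a tRNA synthetase that interferon also induces, rose by 0.20 but did not pass with probe sets averaged (adjusted p = 0.126), with arrays centred on their medians (adjusted p = 0.094), or without S22A-progerin replicate 1 or 2 or any wt-progerin array (adjusted p = 0.058 to 0.133). DDR2, a collagen receptor, fell by 0.49, CTH, of cysteine synthesis, by 0.30 and VLDLR, a lipoprotein receptor, by 0.22. Without S22A-progerin replicate 2 or any wt-progerin array VLDLR was no longer called (adjusted p = 0.0603 to 0.087). The count of falls in this list was 8 with a variance prior that follows signal and 8 with the dimmer genes left out, and 5 with each array centred on its median. ATF4 itself did not pass (-0.07) and, like MDM4, was singled out after its value was seen.

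**Figure D5:**
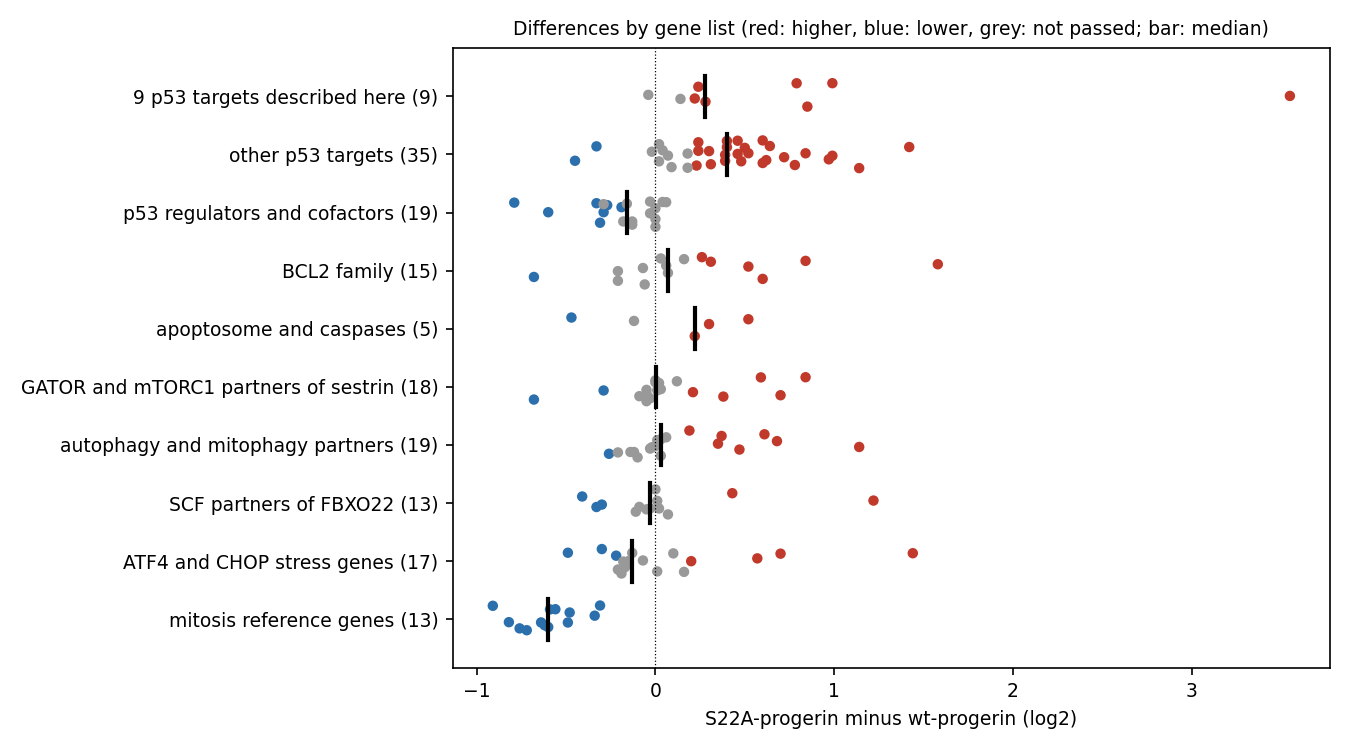
Difference between S22A-progerin and wt-progerin (horizontal axis, log2) for each measured gene of 10 groups (vertical axis, numbers of genes in brackets); red points were called higher, blue lower, grey did not pass, and black bars are medians. The other p53 targets have a median of 0.40 and the mitosis genes one of -0.60.

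Other signals moved in the same cells. All 13 measured genes of a short mitosis list fell, against 14.6% of all genes, with a median of -0.60. The count was 12 with repeated quantile normalization and 12 with every probe set tested. NEK2 (-0.91), a centrosomal kinase, KIF11 (-0.82), a spindle motor, TOP2A (-0.62), a topoisomerase, and BUB1 (-0.56), a spindle checkpoint kinase, had the smallest p. The part of this shift of mitosis genes in the p53 targets was not tested. Among 7 bone and mesenchymal markers VIM, vimentin, averaged 10.83 in S22A-progerin cells and 10.89 in wt-progerin cells. CD44 (0.72), a hyaluronan receptor, and S100A4 (0.38), a calcium-binding protein, rose, and RUNX2 (-0.74), the osteoblast factor, and THY1 (-0.32), a surface glycoprotein, fell. S100A4 lost its call without S22A-progerin replicate 1 or 2 or wt-progerin replicate 2 or 3 (adjusted p = 0.0653 to 0.0859). The collagen and alkaline phosphatase genes of that list were not analysed here. Of 4 leukocyte markers 1 rose, LAPTM5 (1.21), a lysosomal protein, and the log2 of the list's summed signal was 8.91 to 9.11 in S22A-progerin and 8.25 to 8.35 in wt-progerin; PTPRC and CD3E were not analysed here. Without S22A-progerin replicate 3 or wt-progerin replicate 1 that list had 2 rises. CD14, of monocytes, averaged 5.77 in S22A-progerin and 5.59 in wt-progerin cells and did not pass. Of 7 epithelial markers 1 rose, KRT18 (0.51), with sums of 12.08 to 12.15 in S22A-progerin and 11.65 to 11.74 in wt-progerin; EPCAM (-0.28) did not pass, and without wt-progerin replicate 3 there was 1 fall. Of 4 endothelial markers 1 rose, CLDN5 (0.29), with sums of 8.20 to 8.29 in S22A-progerin and 7.99 to 8.13 in wt-progerin. PECAM1, another marker of that list, averaged 5.23 in each group. In the leukocyte, epithelial and endothelial lists the gene that rose was also the brightest measured, so it weighed most in the summed signal. The part of these markers in the p53 targets was not tested.

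Over the 6 arrays the genes whose levels tracked GDF15 most closely were EIF5A2, a paralog of a translation factor, DUSP10, a phosphatase of the stress kinases p38 and JNK, and ZNF114, a zinc finger gene. Their Pearson correlations with GDF15 were 0.9999, 0.9998 and 0.9997. These 6 points form 1 cluster per group, and all 4 genes share that separation, so these values are a description only. ZNF114 rose by 2.13, DUSP10 by 1.03 and EIF5A2 by 0.64, each with groups that did not overlap.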

How the data were processed

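Expression of U-2 OS cells expressing S22A-progerin or wt-progerin was measured on 3 arrays each. The authors deposited log2 values. Per the submitters' processing notes these are RMA output of Affymetrix Expression Console. RMA subtracts background, makes the arrays' distributions equal and summarises the probes of a set, and differences at low signal come out compressed. Tool versions and the genome build: not given in the sources used here. Groups came from the labels. The annotation gives 1 symbol to 16098 of 53617 probe sets, several to 0 and leaves 37519 unnamed here; Entrez identifiers in RefSeq (GRCh38.p14) changed 0 symbols. Of 14884 genes, 779 had several probe sets.

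Genes were tested with limma 3.58.1 (R 4.3.3; lmFit, eBayes, default prior, two-sided, no covariate, no filter on dim genes), adjusted by Benjamini-Hochberg over all genes; adjusted p-values throughout are limma's. FBXO22 probe sets were also tested over all probe sets. The members, the 14 context lists (274 genes, 178 measured) and the tests were chosen with earlier results of these data known. Named genes are the members, their families, LMNA, up to 4 called genes per list and direction with the smallest p, and the 3 genes most correlated with GDF15; others were picked after their values were seen. The code was tested on simulated data of 14884 genes, with 50 genes changed at each size. Of differences of 0.3 on the log2 scale 28% were recovered, 66% of 0.6, 92% of 1 and 100% of 2, with 9 false among 152 calls. Far more genes, 3777, were called in the data, so these shares test the code and not the power in these data. Alternatives changed normalization, filter, probe sets, variance prior, array weights, replicate block, arrays and threshold. Same-numbered arrays' deviations from their group means correlated at -0.02, -0.05 and -0.01, so no shared deviation was seen. That does not settle whether the numbers pair the arrays. The number of arrays limits the precision.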

Additional observations from a re-analysis of the deposited data

How the results depend on the processing

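GDF15, TP53INP1, PMAIP1 and SESN2 kept direction and call under all 17 alternatives, while PLK2 passed in none of 17 and SPATA18 in none of 16 (it is dim and was not tested with the dimmer 50% left out, where the members' median was not computed). No called gene recomputed under the alternatives changed direction; genes singled out after their values were seen and markers that did not pass were not recomputed. The 7 rises among the 9 genes were 4 with every probe set tested, 4 with a fixed replicate block and 4 at adjusted p under 0.01, where AEN, APAF1 and FBXO22 were lost, and 4 to 7 with 1 array left out (4 without wt-progerin replicate 1 or 3); no member fell in any. Whether same-numbered arrays were handled together is not known, and a random replicate block left 7. The members' median ran from 0.24 to 0.33 with 1 array left out. Over all genes 1601 rises and 2176 falls were 953 and 1343 with every probe set tested, 852 and 1226 at 0.01, and 1126 to 1553 and 1514 to 2048 with 1 array left out; centring on array medians gave 1320 and 2457, and leaving out dim genes 1369 and 2365. The 25 rises of other p53 targets were 21 to 26, and their 2 falls were 1 with every probe set tested, with the fixed block and at 0.01, and 1 to 2 with 1 array left out. Of the FBXO22 probe sets, 0 were called, the brighter at an unadjusted p of 0.00718, but 1 was with repeated quantile normalization or a trended prior (adjusted p = 0.0385 and 0.0071). LMNA passed with repeated quantile normalization and without dim genes (adjusted p = 0.0456 and 0.0237). The causes were not tested, except that fewer samples, lost degrees of freedom, more tests or a stricter threshold are built into those settings. Signal over background is unknown, which limits what can be said of dim genes such as SPATA18, GFRAL, GDF6 and S100A4.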
